A study of Mus musculus with 12 samples.

Results

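The genes described here were 35 genes of the urea cycle and of amino acid breakdown in mouse liver, chosen by name from 9 pathway groups: the urea cycle, the entry of glutamine and glutamate, the transaminases, and the breakdown of tyrosine, tryptophan, histidine, proline, lysine and serine. The rule lists the genes by name. All 35 were found in the deposited table of 56205 genes, and all 35 were among the 13416 genes with enough counts to be tested. Poly(A) RNA had been sequenced from whole liver of 12 obese, leptin-deficient mice, each giving 1 library. All 12 mice carried the ob/ob genotype (B6.Cg-Lep ob/J), ate standard chow and were 8 to 10 weeks old at the start per the study's methods. The 6 mice of the FLO group received nothing else, and the 6 mice of the fibrotic group also received ethionine, the ethyl analogue of methionine. The sources differed on the dose and time: the sample labels gave 0.165% DL ethionine in drinking water, for 2 weeks per the series design, the growth protocol gave an injection of 0.15%, and the study's methods gave 0.15% in drinking water for 1 week. No group without the ob/ob genotype was compared here, and nothing in the labels gave a batch.

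Total counts ran from 17815568 to 24814263 per library. The labels stated that all mice were male, but the library of FLO replicate 3 held 3773 counts of Xist and 4 of the Y-linked gene Ddx3y, against 0 to 4 and 556 to 977 in the other 11 libraries. The labels do not say whether the mice of a group shared a litter or cage, and the p-values measure the spread between these livers. Without FLO replicate 3, 14 of the 35 genes were called lower and 3 higher, against 15 and 3 with all 12 libraries. Hepatocyte markers were abundant in every library, their summed level being 102849 to 116201 CPM in FLO and 79049 to 127538 CPM in fibrotic livers. Of 10 stellate cell and fibroblast markers 1 was called higher (Lrat) and 1 lower (Acta2). Among all tested genes the shares were 15.9% higher and 14.0% lower. The collagen genes of that marker list had log2 fold changes of -0.22 (Col1a1), -0.11 (Col1a2) and -0.03 (Col3a1), none of them called. The name fibrotic is therefore used here as the label's. Values below are CPM, counts scaled to a common library size by edgeR's TMM factors. A gene was called at a false discovery rate (FDR, the adjusted p of the edgeR quasi-likelihood test) of at most 0.01 and a log2 fold change, fibrotic against FLO, beyond 0.5 in either direction.

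The urea cycle turns ammonia, which is toxic, into urea. Its first steps lie in hepatocyte mitochondria, where Cps1 joins ammonia to bicarbonate and Otc makes citrulline, and its later steps lie in the cytosol, where Ass1, Asl and Arg1 lead through argininosuccinate and arginine to urea. Amino groups reach it from transaminases, from glutamate through Glud1 and from glutamine through Gls2. The carbon skeletons are broken down by short chains of enzymes, many of which are found mostly in liver, and periportal hepatocytes carry most of the urea cycle. Inherited loss of several of these enzymes causes disease in humans, among them OTC deficiency and tyrosinemia (FAH).

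Most of the genes that changed were lower in the fibrotic livers, and 11 of the 15 genes called lower belonged to the chains that break down tyrosine, tryptophan, histidine and proline, which hold 18 of the 35 genes. These chains were put together after the values were seen, and the count carries no test. Of all 35 genes, 15 (42.9%) were called lower, where 14.0% of all tested genes were, and 3 (8.57%) were called higher, where 15.9% of all tested genes were. The other 17 were not called. The median log2 fold change was -0.46 over the 35 genes and 0.03 over all tested genes. The groups did not overlap for 13 of the 35 genes (37.1%), against 30.4% of all tested genes. Of these 13 genes, 12 were lower in every fibrotic liver than in any FLO liver and 1, Sdsl, was higher. Of the 15 genes called lower, 8 were lower by more than 1 on the log2 scale. Because whole liver was sequenced, fewer cells of a type and less RNA per cell cannot be told apart in any of these values.

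**Figure D1:**
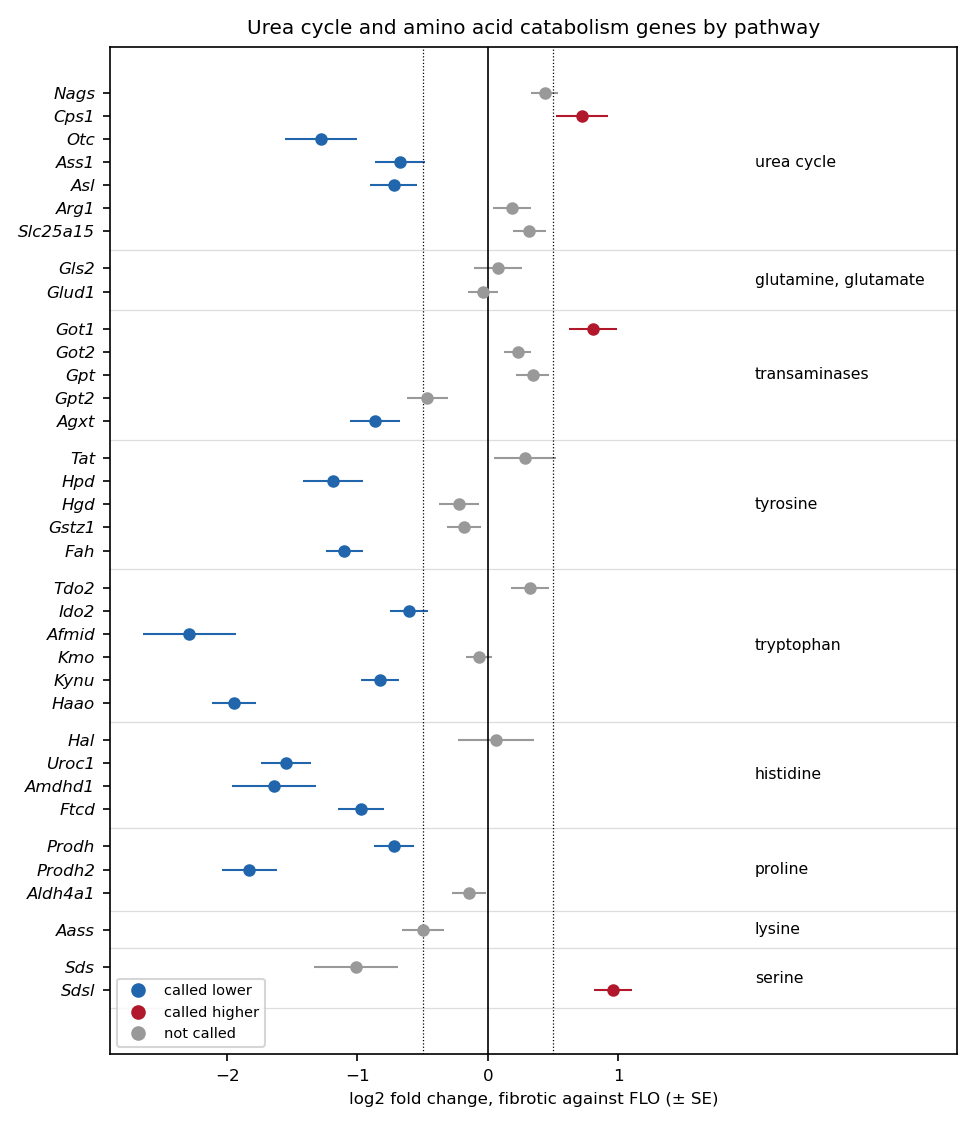
Log2 fold change, fibrotic against FLO, of the 35 genes (points, with bars of 1 SE), grouped by pathway and coloured by whether the gene was called lower, called higher or not called. The 15 genes called lower reach from -0.60 (Ido2) to -2.29 (Afmid), and the 3 called higher lie at 0.73 (Cps1), 0.81 (Got1) and 0.96 (Sdsl).

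The 6 genes with the largest differences whose groups did not overlap were Afmid, Haao, Prodh2, Amdhd1, Uroc1 and Otc. Afmid, the formamidase that releases kynurenine in tryptophan breakdown, ran from 44.7 to 70.6 CPM (median 54.1) in FLO and from 3.88 to 25.1 CPM (median 9.60) in fibrotic livers. Its log2 fold change was -2.29 (SE 0.36, FDR = 0.000168), and the highest fibrotic library, replicate 2, stood well under the lowest FLO library. Haao, which makes the precursor of quinolinic acid later in the same chain, ran from 403 to 622 CPM (median 429) in FLO and from 73.9 to 149 CPM (median 126) in fibrotic livers, with a log2 fold change of -1.95 (SE 0.17, FDR = 3.00e-07). Every fibrotic library was below every FLO library by a wide margin, and the FLO libraries lay close together apart from replicate 3, at 622 CPM. Prodh2, the mitochondrial hydroxyproline dehydrogenase, ran from 186 to 232 CPM (median 205) in FLO and from 29.1 to 77.9 CPM (median 63.7) in fibrotic livers. The difference was -1.83 (SE 0.21, FDR = 6.27e-06) on the log2 scale, a level 3.55-fold lower. The histidine pathway genes Amdhd1 and Uroc1 and the urea cycle gene Otc are described with their pathways below.

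The promoters of these 6 genes are shown because these genes had the largest differences, all in 1 direction. Each sequence is the 250 bases before the RefSeq transcription start in GRCm38.p6, read 5′ to 3′ along the gene, with capitals where a searched motif was found.
Afmid (ENSMUSG00000017718), chr11:117825669-117825918 (+ strand): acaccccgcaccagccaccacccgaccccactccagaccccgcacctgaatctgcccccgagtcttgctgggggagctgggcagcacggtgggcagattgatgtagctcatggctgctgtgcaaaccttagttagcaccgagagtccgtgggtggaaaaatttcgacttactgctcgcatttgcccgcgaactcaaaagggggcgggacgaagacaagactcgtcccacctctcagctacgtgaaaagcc
Haao (ENSMUSG00000000673), chr17:83846791-83847040 (- strand): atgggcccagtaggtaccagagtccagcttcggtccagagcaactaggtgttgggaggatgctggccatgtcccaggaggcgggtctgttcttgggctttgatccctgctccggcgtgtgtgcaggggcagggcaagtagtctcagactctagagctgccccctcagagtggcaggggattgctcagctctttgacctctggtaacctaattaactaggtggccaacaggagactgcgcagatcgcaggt
Prodh2 (ENSMUSG00000036892), chr7:30493408-30493657 (+ strand): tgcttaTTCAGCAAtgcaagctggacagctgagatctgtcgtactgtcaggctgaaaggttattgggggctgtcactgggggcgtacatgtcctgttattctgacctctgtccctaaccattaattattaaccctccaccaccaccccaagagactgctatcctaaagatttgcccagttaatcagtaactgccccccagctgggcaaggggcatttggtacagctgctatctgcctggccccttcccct
Amdhd1 (ENSMUSG00000015890), chr10:93540034-93540283 (- strand): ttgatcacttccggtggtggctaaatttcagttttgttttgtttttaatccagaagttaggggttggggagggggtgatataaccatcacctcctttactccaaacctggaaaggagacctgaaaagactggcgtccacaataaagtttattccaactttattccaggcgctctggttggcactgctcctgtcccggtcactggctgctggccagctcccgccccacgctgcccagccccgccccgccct
Uroc1 (ENSMUSG00000034456), chr6:90333039-90333288 (+ strand): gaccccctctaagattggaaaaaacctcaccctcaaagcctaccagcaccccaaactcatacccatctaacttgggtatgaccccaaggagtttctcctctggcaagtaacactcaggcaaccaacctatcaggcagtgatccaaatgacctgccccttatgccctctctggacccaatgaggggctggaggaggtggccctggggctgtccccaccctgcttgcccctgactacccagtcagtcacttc
Otc (ENSMUSG00000031173), chrX:10252055-10252304 (+ strand): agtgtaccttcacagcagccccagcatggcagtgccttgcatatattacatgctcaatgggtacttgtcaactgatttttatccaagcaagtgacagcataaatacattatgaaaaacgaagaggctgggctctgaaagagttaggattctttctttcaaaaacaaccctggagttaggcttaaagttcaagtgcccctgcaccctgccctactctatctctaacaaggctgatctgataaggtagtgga
The motifs searched on both strands were the TATA box (TATAAA), a C/EBP-type motif (TTGCNNAA), an HNF4-type motif (CAAAGTCC) and the cAMP response element (TGACGTCA). Prodh2 held 1 C/EBP-type motif, and no other motif overlapped it. The windows of Afmid, Haao, Amdhd1, Uroc1 and Otc held none of the 4 motifs as spelled. Among 32851 RefSeq promoters of the same length, 12.4% held the TATA box, 9.56% the C/EBP-type motif, 1.20% the HNF4-type motif and 1.55% the cAMP response element. Of the 35 genes, 26 had a promoter entry, and of these 5 held the TATA box (Ftcd, Got2, Hal, Hgd and Tdo2) and 4 the C/EBP-type motif (Aass, Hal, Hgd and Prodh2). None held the other motifs. A match is a description of letters and not of a bound site.

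Within the urea cycle, the first enzyme was higher and the next 3 were lower. Cps1, the mitochondrial carbamoyl phosphate synthetase that takes up ammonia, ran from 1492 to 2784 CPM (median 1851) in FLO and from 2051 to 4942 CPM (median 3137) in fibrotic livers. All 6 fibrotic libraries were above the FLO median, though the groups overlapped, and the log2 fold change was 0.73 (SE 0.20, FDR = 0.00646). Otc, the mitochondrial enzyme that joins carbamoyl phosphate to ornithine, ran from 275 to 356 CPM (median 299) in FLO and from 44.6 to 198 CPM (median 114) in fibrotic livers. The log2 fold change of Otc was -1.28 (SE 0.28, FDR = 0.00171), a level 2.43-fold lower, with no overlap. Fibrotic replicate 4 was lowest, at 44.6 CPM, and replicates 2 and 3 were highest, at 197 and 198 CPM.

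Ass1, which joins citrulline to aspartate, was by far the most abundant of the 35 genes per length, at 2460.2 CPM per kb in FLO livers. It ran from 3474 to 5145 CPM (median 3926) in FLO and from 1523 to 3881 CPM (median 2642) in fibrotic livers. The log2 fold change was -0.67 (SE 0.19, FDR = 0.00839), and all 6 fibrotic libraries were below the FLO median, although replicate 2 reached into the FLO range. Asl, which splits argininosuccinate into arginine and fumarate, ran from 703 to 877 CPM (median 813) in FLO and from 305 to 717 CPM (median 468) in fibrotic livers and differed by -0.72 (SE 0.18, FDR = 0.00340) on the log2 scale. The highest fibrotic library of Asl, replicate 2, stood above the lowest FLO library, and the other 5 stood below all FLO libraries.

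The calls of Cps1 and Ass1 were close to the threshold. Ass1 lost its call when any 1 of 10 libraries was left out, that is, any library but fibrotic replicate 2 and FLO replicate 4 (FDR 0.0104 to 0.0227), and also with library totals in place of scaling factors (FDR 0.0237). Cps1 lost its call without any 1 of fibrotic replicates 1, 2, 3 or 4 or FLO replicates 2, 4, 5 or 6 (FDR 0.0101 to 0.0183), and both Cps1 and Otc missed it without the low-count filter (FDR 0.0105 and 0.0103).

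The last step and the helpers of the cycle were not called. Arg1, the arginase that releases urea, had 1013 to 1449.9 CPM in FLO and 1115 to 2045 CPM in fibrotic livers (log2 fold change 0.19, FDR = 0.315). Nags, which makes the N-acetylglutamate that activates Cps1, had 70.5 to 95.1 CPM in FLO and 94.3 to 135 CPM in fibrotic livers. All 6 fibrotic libraries of Nags were above the FLO median and the FDR was 0.00266, but the log2 fold change of 0.44 was under the limit of 0.5. Slc25a15, the mitochondrial ornithine carrier, had 285 to 429 CPM in FLO and 375 to 548 CPM in fibrotic livers (log2 fold change 0.32, FDR = 0.0445).

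**Figure D2:**
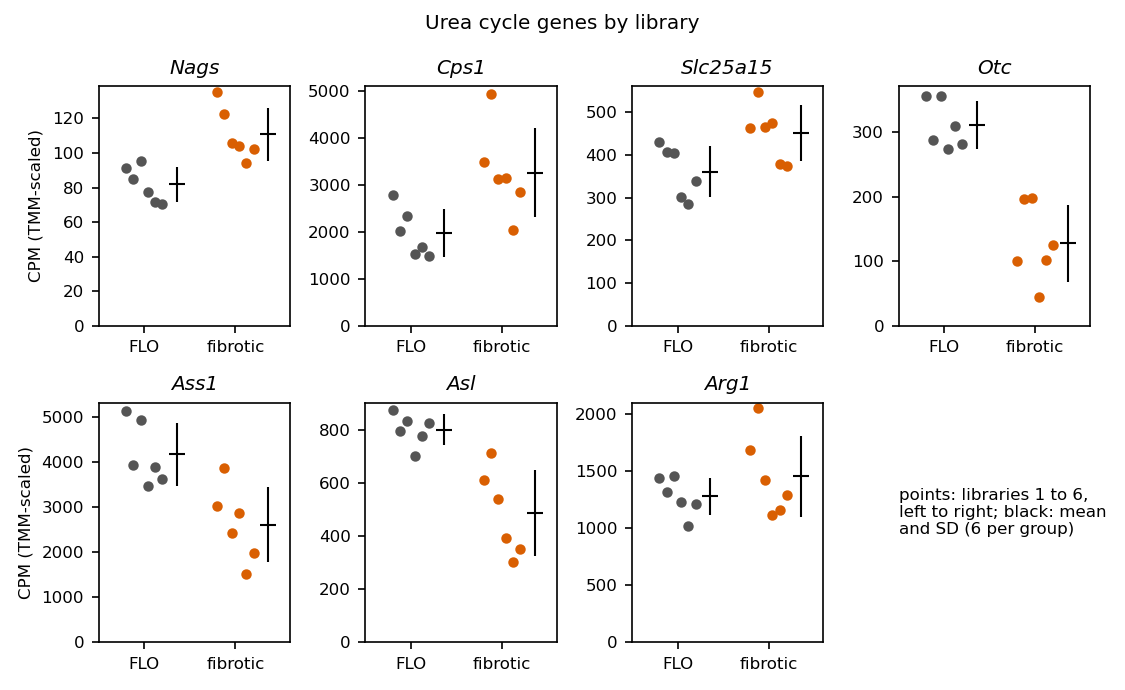
CPM of the 7 urea cycle genes in each library, on axes that start at 0, with 1 point per liver (6 FLO, 6 fibrotic) and black marks for the mean and SD of each group. Otc separates the groups with no overlap, Cps1 lies higher and Ass1 and Asl lie lower in fibrotic livers with overlap, and the groups of Arg1 cover much of the same range.

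The ratio of the first 2 enzymes also separated the groups. The ratio of Cps1 to Otc counts ran from 5.29 to 7.83 (median 6.09) in FLO and from 15.8 to 70.6 (median 23.9) in fibrotic livers, and the lowest fibrotic ratio was above the highest FLO ratio. The ratio of Cps1 to Ass1 ran from 0.412 to 0.541 (median 0.458) in FLO and from 1.10 to 1.44 (median 1.28) in fibrotic livers, again with no overlap. These ratios were chosen after the values of their genes were seen and carry no test, but a ratio within a library does not depend on how libraries are scaled.

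Neither gene that feeds ammonia from glutamine or glutamate was called. Gls2, the liver glutaminase, had 396 to 650.1 CPM in FLO and 328 to 799 CPM in fibrotic livers (log2 fold change 0.08, FDR = 0.740). Glud1, the glutamate dehydrogenase, had 1017 to 1434 CPM in FLO and 1042 to 1508 CPM in fibrotic livers (log2 fold change -0.03, FDR = 0.823), and the highest of its fibrotic libraries was replicate 4, the library that was lowest for Otc.

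Of the 5 transaminases, 1 (20%) was called higher and 1 (20%) lower, near the 15.9% and 14.0% of all tested genes. Got1, the cytosolic aspartate aminotransferase, ran from 168 to 259 CPM (median 229) in FLO and from 211 to 493 CPM (median 419) in fibrotic livers, with a log2 fold change of 0.81 (SE 0.18, FDR = 0.00199). Of the 6 fibrotic libraries, 5 were above the FLO median and replicate 5 was not. Agxt, the alanine-glyoxylate aminotransferase that removes glyoxylate in peroxisomes, ran from 114 to 211 CPM (median 136) in FLO and from 51.5 to 109 CPM (median 86.1) in fibrotic livers. Its groups did not overlap, and its log2 fold change was -0.86 (SE 0.19, FDR = 0.00177).

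The mitochondrial Got2 had 693 to 849 CPM in FLO and 749 to 1100.2 CPM in fibrotic livers (log2 fold change 0.23, FDR = 0.0713). The alanine aminotransferases had opposite signs, Gpt, the cytosolic form, with 425 to 531 CPM in FLO and 423 to 773 CPM in fibrotic livers (log2 fold change 0.35, FDR = 0.0319) and Gpt2, the mitochondrial form, with 843 to 1192 CPM in FLO and 514 to 978 CPM in fibrotic livers (log2 fold change -0.46, FDR = 0.0216). None of these 3 genes passed the threshold.

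In tyrosine breakdown, the second and the last of the 5 enzymes were lower and the others were not called. Hpd, which turns 4-hydroxyphenylpyruvate into homogentisate, ran from 1156 to 1661 CPM (median 1354) in FLO and from 327 to 961 CPM (median 615) in fibrotic livers. The log2 fold change of Hpd was -1.19 (SE 0.23, FDR = 0.000534), and no fibrotic library reached the FLO range. Fah, which splits fumarylacetoacetate in the last step, ran from 588 to 725 CPM (median 647) in FLO and from 202 to 394 CPM (median 305) in fibrotic livers. Its difference was -1.10 (SE 0.14, FDR = 1.43e-05), a level 2.14-fold lower, with no overlap.

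Tat, the aminotransferase that starts the chain, had 575 to 1472 CPM in FLO and 729 to 1871 CPM in fibrotic livers (log2 fold change 0.29, FDR = 0.338), a spread in which both groups covered much the same range. Hgd, which opens the homogentisate ring, had 622 to 838 CPM in FLO and 387 to 799 CPM in fibrotic livers (log2 fold change -0.22, FDR = 0.240). Gstz1, the isomerase before Fah, had 297 to 437 CPM in FLO and 228 to 413 CPM in fibrotic livers (log2 fold change -0.19, FDR = 0.248).

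In tryptophan breakdown, 4 of 6 genes (66.7%) were called lower and none higher, where 14.0% and 15.9% of all tested genes were. Besides Afmid and Haao, described above, Kynu, which cleaves kynurenine and 3-hydroxykynurenine, ran from 81.4 to 129 CPM (median 95.6) in FLO and from 45.4 to 81.1 CPM (median 54.5) in fibrotic livers. Its groups did not overlap, and its log2 fold change was -0.83 (SE 0.15, FDR = 0.000268). Ido2, a dioxygenase related to the enzyme that opens the tryptophan ring, was expressed at a low level, from 40.9 to 61.5 CPM (median 52.0) in FLO and from 22.4 to 42.6 CPM (median 36.1) in fibrotic livers. It differed by -0.60 (SE 0.14, FDR = 0.00254) on the log2 scale with fibrotic replicates 2 and 3 inside the FLO range. Without fibrotic replicate 4 the log2 fold change of Ido2 was -0.50, just inside the fold limit, and the call was lost, as it was with library totals alone.

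Tdo2, the main liver dioxygenase that starts the chain, had 1285 to 1803 CPM in FLO and 1549 to 2721 CPM in fibrotic livers (log2 fold change 0.32, FDR = 0.0788), without the separation seen for Afmid and Haao. Kmo, the mitochondrial kynurenine hydroxylase, had 284 to 348 CPM in FLO and 268 to 386 CPM in fibrotic livers (log2 fold change -0.07, FDR = 0.597).

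In histidine breakdown, the 3 enzymes after the first were all lower. Uroc1, the urocanate hydratase of the second step, ran from 525 to 717 CPM (median 609) in FLO and from 129.7 to 331 CPM (median 191) in fibrotic livers, with a log2 fold change of -1.55 (SE 0.19, FDR = 1.08e-05). Amdhd1, the imidazolonepropionase of the third step, ran from 121 to 198 CPM (median 150.3) in FLO and from 19.5 to 101 CPM (median 46.6) in fibrotic livers. Its log2 fold change was -1.64 (SE 0.32, FDR = 0.000951), and fibrotic replicate 4 was lowest, at 19.5 CPM. Ftcd, which passes the formimino group to folate in the last step, ran from 366 to 450.2 CPM (median 421) in FLO and from 109 to 285 CPM (median 213) in fibrotic livers, with a log2 fold change of -0.97 (SE 0.17, FDR = 0.000281). None of these 3 genes had overlapping groups.

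Hal, the histidine ammonia-lyase of the first step, had 206 to 452 CPM in FLO and 179 to 595 CPM in fibrotic livers (log2 fold change 0.06, FDR = 0.871), with 3 fibrotic libraries above and 3 below the FLO median. In the RefSeq gene order Amdhd1 is the next protein-coding gene to Hal on chromosome 10.

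In proline breakdown, Prodh, the mitochondrial dehydrogenase of the first step, ran from 195 to 319 CPM (median 238) in FLO and from 94.2 to 194 CPM (median 155) in fibrotic livers. Its groups did not overlap, with a log2 fold change of -0.72 (SE 0.15, FDR = 0.00117), a smaller difference than that of Prodh2. Aldh4a1, the dehydrogenase that both chains share and that makes glutamate from the proline product, had 506 to 789 CPM in FLO and 500.5 to 688 CPM in fibrotic livers (log2 fold change -0.14, FDR = 0.381).

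The lysine gene Aass, a mitochondrial enzyme of 2 activities that starts the main chain, had 279.7 to 381 CPM in FLO and 153 to 323 CPM in fibrotic livers. Of 6 fibrotic libraries 5 were below the FLO median, but the log2 fold change of -0.50 did not pass (FDR = 0.0189). Without fibrotic replicate 2 it did (FDR = 0.00326).

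The serine dehydratases had differences of opposite sign. Sdsl, serine dehydratase-like, ran from 15.1 to 16.5 CPM (median 16.1) in FLO and from 22.0 to 42.4 CPM (median 30.5) in fibrotic livers. Every fibrotic library was above every FLO library, and the log2 fold change was 0.96 (SE 0.14, FDR = 5.62e-05). Sds, the serine dehydratase that makes pyruvate and ammonia, ran from 332 to 441 CPM (median 377) in FLO and from 87.2 to 333 CPM (median 156) in fibrotic livers. All 6 fibrotic libraries of Sds were below the FLO median, but they fell into a higher set (replicates 1, 2 and 3) and a lower set (4, 5 and 6), and its log2 fold change of -1.01 had an FDR of 0.0172 and was not called. It passed without fibrotic replicate 2 or 3 (FDR 0.00429 to 0.00722). Sdsl and Sds are next to each other on chromosome 5 in the RefSeq gene order.

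**Figure D3:**
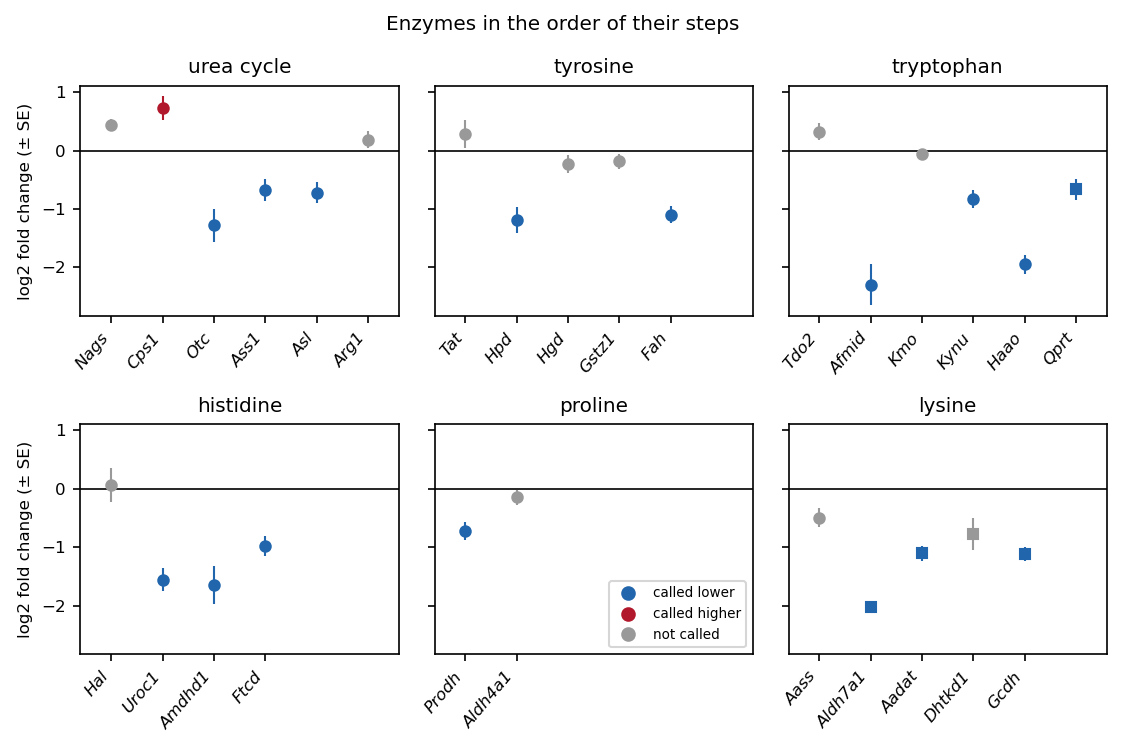
Log2 fold change, fibrotic against FLO (bars, 1 SE), of the enzymes of 6 pathways in the order of their steps. Circles are genes of the 35, squares are other genes of the pathways, and colour gives the call. Tat (0.29), Tdo2 (0.32) and Hal (0.06) were not called, whereas Hpd (-1.19), Afmid (-2.29) and Uroc1 (-1.55) were called lower. In the proline panel the first enzyme, Prodh (-0.72), was called lower and Aldh4a1 (-0.14) was not called.

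The entry enzymes of the tyrosine, tryptophan and histidine chains and of lysine breakdown (Tat, Tdo2, Hal and Aass) were not called. Some later steps of each of these chains were called lower. Proline breakdown went the other way: its first enzyme Prodh was called lower (-0.72) and the later Aldh4a1 was not called (-0.14). Ido2, which is paired with Tdo2 below as a gene of the same or a related step, was called lower (-0.60). Aass, at -0.50 in the main fit, was called lower by DESeq2. The grouping by step was chosen after the values were seen, and it carries no test. Of the 13 genes held in mitochondria by common knowledge, 3 were called lower and 1 higher, with a median log2 fold change of -0.07, and of the 21 held in the cytosol, 11 were called lower and 2 higher, with a median of -0.67. Over all tested genes, 14.0% were called lower and 15.9% higher. Agxt, which is peroxisomal, was in neither set.

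Other genes of the same pathways were read beside the 35. Of 63 tested, 27 (42.9%) were called lower and 5 (7.94%) higher, with a median log2 fold change of -0.36, where 14.0% of all tested genes were called lower and 15.9% higher with a median of 0.03. Groups did not overlap for 29 of them, or 46.0%, beside 30.4% of all tested genes. Lysine breakdown beyond Aass had the most marked values: Pipox, the oxidase of pipecolic acid, ran from 178 to 223 CPM (median 186) in FLO and from 10.02 to 13.7 CPM (median 11.8) in fibrotic livers, with a log2 fold change of -4.02 (SE 0.10, FDR = 1.09e-12). Also lower were Hykk, the hydroxylysine kinase, at -2.35, Aldh7a1, the aminoadipic semialdehyde dehydrogenase, at -2.02, and Gcdh, the glutaryl-CoA dehydrogenase, at -1.11. Agxt2, the mitochondrial aminotransferase for beta-aminoisobutyrate and methylated arginine, was lower at -2.54 (SE 0.15, FDR = 8.51e-09). These were 5 of the 23 genes lower without overlap. Gcdh and the genes of the next 2 paragraphs, other than Hpdl and Bckdk, were named after their values were seen.

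Around the urea cycle, 8 other genes were tested, and 3 (37.5%) were called lower and 1 (12.5%) higher. Over all tested genes 14.0% were called lower and 15.9% higher. The median log2 fold change of the 8 was -0.07, and 4 were not called. Among the 3 lower genes, Slc25a13, the aspartate-glutamate carrier that supplies aspartate to Ass1, ran from 229.8 to 275 CPM (median 251) in FLO. In fibrotic livers it ran from 102 to 144 CPM (median 110.0), with a log2 fold change of -1.07 (SE 0.10, FDR = 5.01e-07). Oat, which links ornithine to proline and glutamate, was lower at -0.98 (SE 0.16, FDR = 0.000146), and Car5a, the mitochondrial carbonic anhydrase that supplies bicarbonate to Cps1, was lower at -1.35 (SE 0.26, FDR = 0.000791). Qdpr and Pcbd1, which recycle tetrahydrobiopterin, were lower at -0.52 and -0.58. Both lost their calls with library totals alone and without fibrotic replicate 4, and Qdpr also without fibrotic replicate 5 or FLO replicate 3. Hpdl, a gene related to Hpd, was higher at 2.07 (SE 0.29, FDR = 2.91e-05) and was expressed at a low level, from 0.214 to 1.13 CPM (median 0.619) in FLO and from 2.47 to 3.02 CPM (median 2.82) in fibrotic livers. Kyat3, a kynurenine aminotransferase, was lower at -1.93 (SE 0.37, FDR = 0.000876), and Aadat, which also transaminates kynurenine, at -1.10 (SE 0.13, FDR = 5.02e-06).

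In the branched-chain group of 22 tested genes, 10 (45.5%) were called lower and 1 higher, where 14.0% and 15.9% of all tested genes were. Bckdk, the kinase that inactivates the branched-chain ketoacid dehydrogenase, ran from 10.7 to 15.9 CPM (median 15.2) in FLO and from 21.8 to 33.2 CPM (median 31.9) in fibrotic livers. It was higher at 1.07 (SE 0.12, FDR = 2.73e-06), and Ppm1k, the phosphatase that reverses it, was lower at -1.61 (SE 0.14, FDR = 2.60e-07). Aldh6a1 and Pccb, which act late in valine and propionate breakdown, were lower at -1.20 and -1.17. The subunits Bckdha, Bckdhb and Dbt of the dehydrogenase itself were not called, at 0.35, -0.38 and -0.06. In proline synthesis Aldh18a1, which makes the proline precursor, was higher at 1.47 (SE 0.27, FDR = 0.000313), opposite in sign to Prodh, from 0.941 to 2.20 CPM in FLO and 1.83 to 5.89 CPM in fibrotic livers.

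Enzyme pairs for the same or a related step were compared by the log2 ratio of their CPM within each library, by exact permutation (two-sided, every way to split 12 livers into groups of 6; the smallest possible p is 0.00216), adjusted over 7 pairs, of which 6 are described. The ratio of Sds to Sdsl ran from 20.8 to 26.1 (median 23.6) in FLO and from 3.08 to 10.8 (median 4.95) in fibrotic livers, and the difference between groups was -2.11 on the log2 scale (exact permutation p = 0.00216, adjusted p = 0.0038). Prodh to Prodh2 ran from 0.956 to 1.37 (median 1.17) in FLO and from 2.03 to 3.21 (median 2.61) in fibrotic livers, a difference of 1.17. Tdo2 to Ido2 differed by 0.92 and Gpt to Gpt2 by 0.81, in each case with the same exact permutation p as Sds to Sdsl, the smallest the test can give. In all 4 pairs no fibrotic ratio reached the FLO range.

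Got1 to Got2 differed by 0.54 (exact permutation p = 0.0433, adjusted p = 0.0505), and it passed without fibrotic replicate 5 or FLO replicate 6 (adjusted p = 0.0030 and 0.0480). Arg1 to Arg2 differed by -0.53 (exact permutation p = 0.108), where Arg2 had at most 1.11 CPM in any library.

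**Figure D4:**
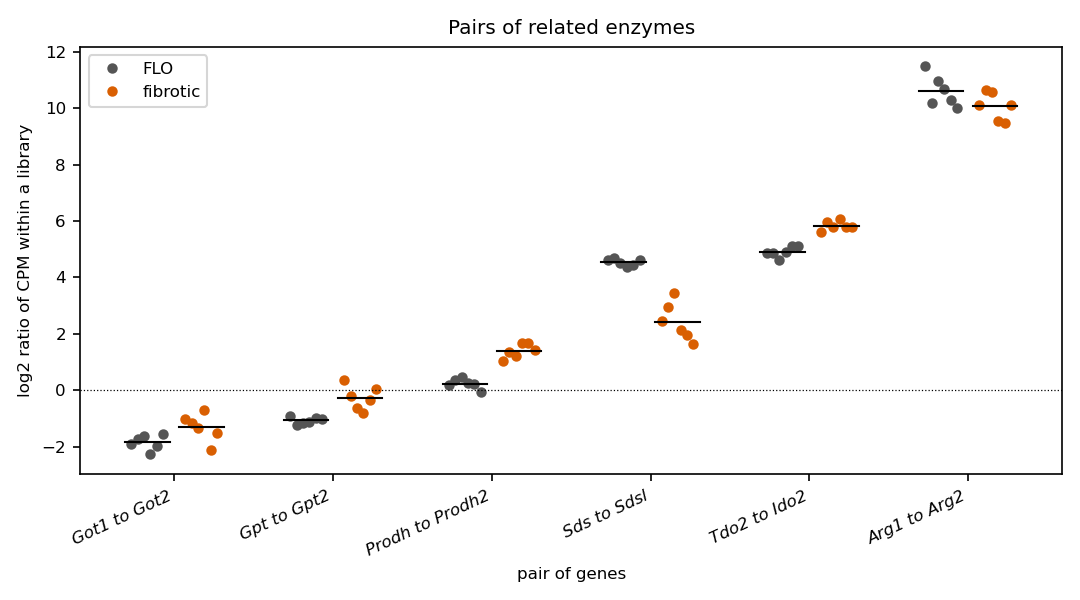
Log2 ratio of the CPM of related enzymes within each library, with 1 point per liver and a bar at the group mean. The groups do not overlap for Gpt to Gpt2, Prodh to Prodh2, Sds to Sdsl and Tdo2 to Ido2, and they overlap for Got1 to Got2 and Arg1 to Arg2.

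The livers of a group differed among themselves in a way that was shared by many of the 35 genes. Fibrotic replicate 2 was the highest of its group for 30 of the 35 genes, or for 24 with library totals alone, and fibrotic replicate 4 was the lowest for 17 and replicate 5 for 13. In the FLO group, replicate 3 was highest for 19 and replicate 1 for 14. The 15 genes called lower were at a median of -1.92 (log2, against the FLO mean) in fibrotic replicate 4 and -0.54 in replicate 2, with the other 4 fibrotic livers between them. Marker sums also differed between the fibrotic livers. By the share of counts in macrophage markers, the order from the highest was replicates 4, 1, 5, 6, 3 and 2. By the median of the genes called lower, the order from the lowest was replicates 4, 5, 6, 1, 3 and 2. The orders differed in the place of replicate 1, with 0.0548% of counts in macrophage markers and a median of -0.99. Fibrotic replicate 2 had the lowest macrophage sum (301 CPM) and stellate sum (246 CPM) of its group and the highest hepatocyte sum (127538 CPM). Replicate 4 had the highest macrophage sum (642 CPM) and the lowest hepatocyte sum (79049 CPM), and replicate 5 had the highest cholangiocyte sum (299 CPM) and stellate sum (480.2 CPM). Their part in the spread was not tested. Together the 35 genes held 1.67% to 2.75% of all counts in fibrotic libraries and 1.96% to 2.49% in FLO libraries, ranges that overlap.

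**Figure D5:**
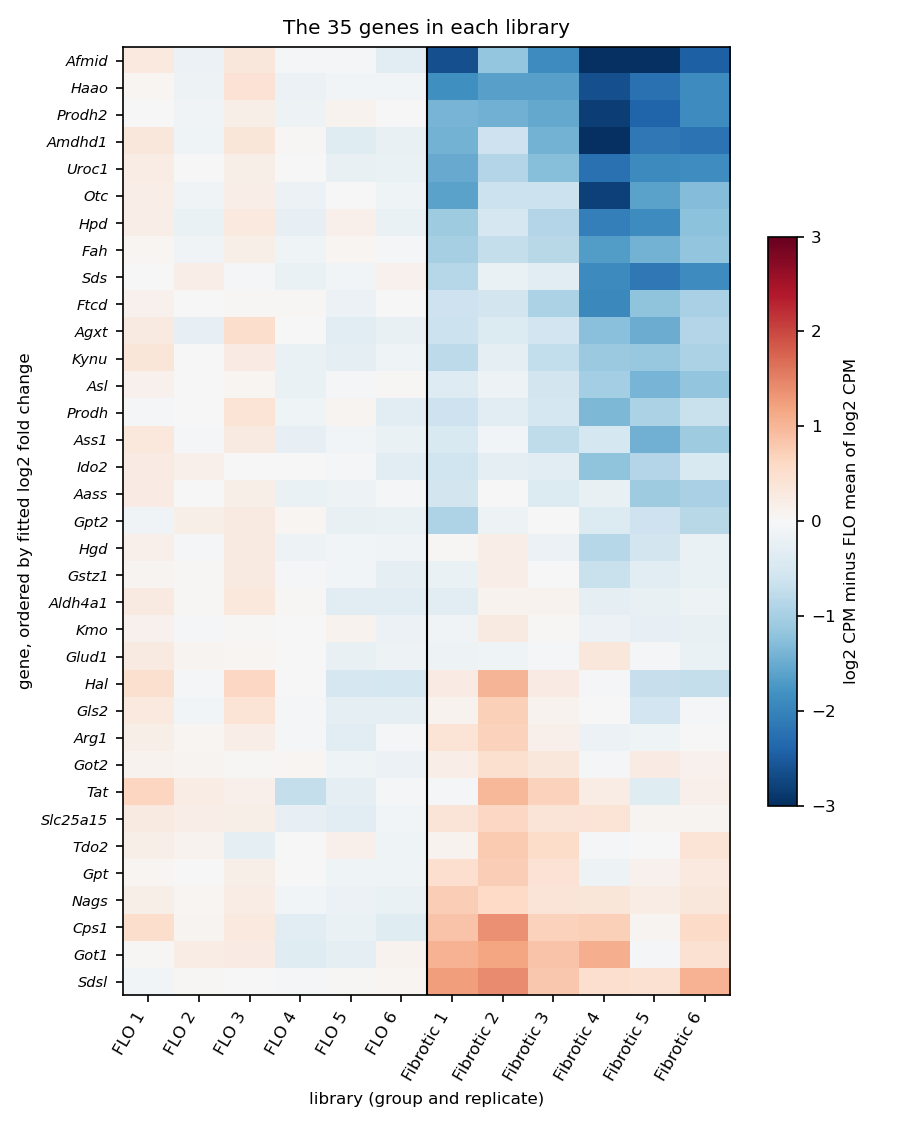
Log2 CPM of each of the 35 genes in each of the 12 libraries relative to the mean of the 6 FLO libraries, ordered by fitted log2 fold change. Blue is lower, red is higher, colours stop at -3 and 3, and the top of the map, where the genes called lower lie, is mostly blue in the 6 fibrotic libraries and deepest in replicates 4 and 5.

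The 14 regulators of these genes were called at a share near or under that of all tested genes: 2 (14.3%) were lower, where 14.0% of all were, and 1 (7.14%) was higher, where 15.9% were. Cebpb, a transcription factor induced in the acute response of liver, ran from 30.2 to 52.4 CPM (median 39.7) in FLO and from 67.6 to 113 CPM (median 73.5) in fibrotic livers, with a log2 fold change of 0.98 (SE 0.15, FDR = 6.26e-05). Gcgr, the glucagon receptor, ran from 302 to 343 CPM (median 327) in FLO and from 128 to 249 CPM (median 238) in fibrotic livers and was lower at -0.58 (SE 0.13, FDR = 0.00197), and Onecut1, a hepatocyte transcription factor, was lower at -0.89 (SE 0.22, FDR = 0.00361) from a low level (3.35 to 7.59 CPM in FLO and 1.62 to 3.52 CPM in fibrotic livers). Hnf4a (-0.08), Cebpa (0.21) and Nr3c1 (-0.29), the glucocorticoid receptor, were not called. Nor were Prox1 (-0.42), Ppara (-0.41), Creb3l3 (-0.35), Klf15 (-0.70), Ppargc1a (0.64), Foxo1 (0.51) and Atf4 (0.49). Atf4 had no overlap between groups and an FDR of 0.00255, with a fold change under the limit. Gcgr and Onecut1 lost their calls with library totals alone, Gcgr also without fibrotic replicate 4 and Onecut1 also without FLO replicate 4. With library totals alone Atf4, Foxo1 and Ppargc1a were called higher. Klf15 was called lower by DESeq2, with upper quartile normalization, with a replicate block and without fibrotic replicate 2, and Prox1 without fibrotic replicate 2. Atf4 was called higher without any 1 of fibrotic replicates 3, 5 or 6 or FLO replicates 3 or 6, Foxo1 without fibrotic replicate 1 or 5, and Ppargc1a without FLO replicate 1.

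Markers of some other cell types moved with the groups. Over all tested genes, 15.9% were called higher and 14.0% lower. Of 11 macrophage and Kupffer cell markers 7 were called higher, with a summed level of 249 to 282 CPM in FLO and 301 to 642 CPM in fibrotic livers. Of 7 tested cholangiocyte markers 4 were called higher, with a summed level of 59.9 to 103 CPM in FLO and 97.3 to 299 CPM in fibrotic livers. Of 8 endothelial markers 1 was called lower, with a summed level of 249.6 to 280.2 CPM in FLO and 183 to 232 CPM in fibrotic livers, and of 3 tested lymphocyte and neutrophil markers none was called. The stellate and fibroblast markers summed to 236 to 392 CPM in FLO and 246 to 480.2 CPM in fibrotic livers. No defining marker of macrophages, cholangiocytes or stellate cells was at 0 in every library. Their part in the differences above was not tested.

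Hepatocyte markers moved in both directions, 3 called lower and 3 higher of 10. For these and the next 2 marker lists, the shares of all tested genes were 14.0% lower and 15.9% higher. Of 9 periportal markers 4 were called lower and 1 higher, but 5 of those 9 (Sds, Hal, Gls2, Cps1 and Ass1) are among the 35 genes. Of 8 pericentral markers 3 were called lower, but some of those 8 are also among the other pathway genes above, and Oat, called lower, is one of them. The study's methods name a stranded library kit, but counting by strand was not stated. Whether reads of a gene and of an antisense partner were counted apart is therefore not known.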

How the data were processed

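Liver RNA of 12 ob/ob mice was sequenced, and the authors deposited 1 table of raw counts, as whole numbers per Ensembl gene with no normalization. The submitters' processing notes list STAR 2.7.3a, bcl2fastq and mm10. The annotation and the use of strand in counting were not given in the sources used here, so no gene coordinates are printed for the table. Groups and replicate numbers were read from the sample titles. Of 56205 identifiers, 51745 had a symbol, and those without held 0.0587% of counts. No column of the table was left unused.

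The 35 genes, the other lists and the thresholds were chosen with earlier results of these data known. Differences in counts were fitted by edgeR's quasi-likelihood method (version 4.0.16 under R 4.3.3, with TMM scaling, filterByExpr and robust dispersion) over 13416 genes, with Benjamini-Hochberg adjustment over all of them. A call needed an FDR of 0.01 or less and an absolute log2 fold change over 0.5, as in the study's methods. Ratios had 0.5 CPM added to both genes and were compared by two-sided exact permutation, adjusted over 7 pairs. The SE is the absolute log2 fold change divided by the square root of F. The fit was tested on simulated counts. Levels per length used the longest transcript in GENCODE M21. Every pair of libraries within a group differed by more than sampling noise (smallest chi-square per degree of freedom 10.3, 30 pairs).

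Named genes were all 35, the regulators (a few listed genes and 1 pair are counted but not reported here), and the 4 most lowered and 4 most raised other pathway genes among calls with no overlap (3 such genes were raised). Other genes were named after their values were seen. All 35 genes passed the low-count filter, so the exact test planned for genes below it was not used. The alternatives tried were DESeq2 1.42.0, limma-voom 3.58.1, other scalings, other filters, non-robust dispersion, other thresholds, omission of each library in turn and a block for the replicate number. A fit with library totals and no scaling factors was added after the data were seen. Promoters are RefSeq GRCm38.p6, and 26 of the 35 genes had an entry.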

Additional observations from a re-analysis of the deposited data

Results flagged for a closer look

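In 108 groups of 6 values (the 35 genes, 13 regulators and 6 ratios in both groups), 2 had 1 library farther from the rest than Dixon's limit of 0.625 for 6 samples, where chance gives about 1 in 20 groups, or 5.4. Glud1 in fibrotic replicate 4 was highest, at 1508 CPM against 1172 CPM for the next library, a gap of 0.721 of the group's range. Haao in FLO replicate 3 was highest, at 622 CPM against 479.9 CPM, a gap of 0.648 of the range, and its groups did not overlap. No cause was tested.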

How the results depend on the processing

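Of the 35 genes, all kept their call and sign under RLE, upper quartile and TMM without the 50 most counted genes, at least 10 counts in every library, and the fit that was not robust. DESeq2 added Aass and limma-voom added Sds. Without the low-count filter Cps1 and Otc missed the threshold, leaving 0 mitochondrial genes called higher, with 24871 genes tested in place of 13416.

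Library totals alone moved the median of all tested genes from 0.03 to 0.20 (log2), and the share of calls that were higher from 53.3% to 71.8% (1233 lower and 3137 higher, against 1873 and 2139). There, 5 of the 35 genes were called higher (2 of them mitochondrial), 3 cytosolic genes were called higher, and 0 regulators were lower and 4 higher. Ass1 and Ido2 lost their calls, Nags and Gpt gained one, and values near 0 changed sign: Glud1 0.16, Kmo 0.10, Aldh4a1 0.026, Acmsd 0.056 and Hnf4a 0.10.

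At an FDR of 0.05 with no fold limit, 6 of the 35 genes, 8 other pathway genes, 4 regulators and 3 mitochondrial genes were higher, and 6 regulators and 5 mitochondrial genes lower. With a limit of 1, 8 of the 35 genes (6 of them cytosolic), 12 other pathway genes and 0 regulators were lower, and 3 other pathway genes but 0 of the 35 genes (cytosolic or mitochondrial) and 0 regulators were higher.

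The values gave no sign that the replicate numbers pair the mice. Correlations of same-numbered deviations ran from -0.16 to 0.10, and no fibrotic library correlated best with the FLO library of its own number. Weak correlations cannot exclude a shared litter, cage or order of processing. With a replicate block, all-gene calls were 3780 against 4012, Sds was called at -1.22 and Klf15 at -0.71, and Hal was at -0.0029.

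With 1 library left out, 13 to 17 of the 35 genes were called lower and 2 to 3 higher, 21 to 28 other pathway genes lower and 5 to 6 higher, 1 to 4 regulators lower and 1 to 3 higher, 3 to 4 mitochondrial genes lower and 0 to 1 higher, and 9 to 12 cytosolic genes lower and 2 higher. Gls2 ran from -0.083 to 0.19, Glud1 from -0.11 to 0.021 and Hal from -0.20 to 0.20. The ratio of Got1 to Got2 ran from 0.42 to 0.71, and with nothing added Got1 to Got2 was 0.54 (exact permutation, adjusted p = 0.0433). Arg1 to Arg2 has no value there, since 1 library held 0 counts of Arg2, so the adjustment ran over 1 pair fewer. With 0.5 CPM added and all 7 pairs, the exact permutation p of Got1 to Got2 was 0.0433 and its adjusted p 0.0505. The lower adjusted p with nothing added therefore came from the smaller number of pairs. Where other calls changed, the cause was not tested.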
